A study of Mus musculus with 2 samples.

Results

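The solute carriers of the Slc2, Slc5, Slc6, Slc7, Slc13, Slc17 and Slc22 families were examined in the open chromatin of the embryonic mouse kidney. All protein-coding genes of the GENCODE M21 annotation whose name starts with Slc2a, Slc5a, Slc6a, Slc7a, Slc13a, Slc17a or Slc22a were taken, which gave 101 of 21911 genes. The Slc22 family supplied 25 of them, Slc6 21, Slc7 16, Slc5 13, Slc2 12, Slc17 9 and Slc13 5. The name rule also admits Slc7a6os, which is a neighbour of Slc7a6 and not a carrier.

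Single-nucleus ATAC-seq, in which a transposase cuts accessible DNA in single nuclei, had been applied to kidneys of mouse embryos at embryonic day 15.5, with 1 library for Enl-WT and 1 for Enl-T1. By the study's methods, Enl-T1 embryos were Enl flox-T1/+ Wt1 GFPCre/+ and carried 1 copy of a Cre-switched Enl allele with a small in-frame insertion known from Wilms tumour, while Enl-WT embryos were Enl +/+ Wt1 GFPCre/+. Both groups therefore carried the Cre inserted at Wt1, which disrupts that Wt1 copy and is active in the nephron and stromal lineages. The number of embryos pooled into each library and their sex are not given in the sources used here, and with 1 library in a group no difference can be set against a spread between replicates.

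These carriers move nutrients, metabolites and drugs across cell membranes. In the mature kidney the proximal tubule reclaims glucose and amino acids from the filtrate through sodium-driven Slc5 and Slc6 carriers on its luminal side, and lets them out to the blood through Slc2 and Slc7 carriers. The Slc22 and Slc17 families handle organic anions, organic cations, urate and phosphate, and Slc13 carriers take up sulphate and dicarboxylates. Other members feed every dividing cell with glucose and amino acids, and a further group clears transmitters in the nervous system.

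The Enl-WT library held 9472 nuclei and the Enl-T1 library 12635 nuclei with 2000 to 100000 counts, at a median of 14789.5 and 8753 counts per nucleus. Of these barcodes, 149 occurred in both libraries. Nuclei were grouped without any region of the carriers and named from marker genes outside the families examined here. Some of these markers, such as Slc34a1, are solute carriers of other families. Proximal tubule-like nuclei were 1010 from Enl-WT and 102 from Enl-T1, and nephron progenitor-like nuclei 1941 and 4405. Stroma-like nuclei numbered 2836 and 4719, ureteric epithelium-like nuclei 931 and 1872, endothelial-like nuclei 764 and 606, those named distal tubule or loop-like 691 and 76, and podocyte-like nuclei 738 and 10. The proximal tubule-like nuclei of Enl-WT had a mean of 48.2 CPM (counts per 1000000 counts in shared regions) over 11 proximal tubule markers, against 25.7 in the nephron progenitor-like nuclei, although 6 of the 11 were raised over the median cluster and 5, Miox and Cubn among them, were not. Markers of early nephron epithelium were also high, at a mean of 71.2 CPM against 45.6, and so were those of the distal tubule or loop, at 73.6 against 53.3. The class sizes depend on the clustering: with components 2 to 15, or with the carriers' own regions kept, proximal tubule-like nuclei were 763 and 788 in Enl-WT and 41 and 48 in Enl-T1, podocyte-like nuclei of Enl-WT were 309 and 326, and an early nephron epithelium-like class of 783 and 904 Enl-WT nuclei and 79 and 130 Enl-T1 nuclei appeared. None of the 4 progenitor clusters, nor the proximal tubule cluster, had any of its own markers among its 10 leading genes. Progenitor cluster 1, which holds 1838 Enl-WT and 107 Enl-T1 nuclei, was led by Umod, a marker of the loop, so progenitor values are also given by cluster number.

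Levels below are counts in regions where peaks of both libraries overlap, summed over the gene body and 2 kb upstream and scaled to the total in such regions as CPM. Intervals in parentheses are exact 95% intervals of counting error and cover nothing else. A ratio was called when it reached 1.5-fold, and only for genes with at least 100 counts in both groups together.

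Peaks were called by the authors in each library separately. In Enl-WT 512 peaks touched 90 of the 101 carrier genes, and in Enl-T1 391 peaks touched 87. A carrier gene had a median of 3 peaks in Enl-WT and 2 in Enl-T1, and 54 genes had more peaks in Enl-WT, 4 had more in Enl-T1 and 43 had the same number. Enl-WT had more peaks in all, 159560 against 130027, and of all protein-coding genes 35.2% had more peaks in Enl-WT and 7.17% more in Enl-T1, against 53.5% and 3.96% of the carriers. Slc7a11, the cystine and glutamate exchanger, held 50 and 42 peaks, the most of any carrier. Its annotated window is very long, with a peak of Enl-WT alone centred 538344 bases from the nearest annotated start. Peak numbers were not scaled to window length. Levels and ratios of Slc7a11 below are sums over this window, and its intronic regions can lie far from the start. A further 10 genes had no peak in either library, namely Slc22a16, Slc22a19, Slc22a20, Slc22a26, Slc22a27, Slc22a29, Slc22a30, Slc5a4a, Slc6a14 and Slc7a12.

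A peak within 1 kb of an annotated start was found for 82 carriers (81.2%) in Enl-WT and 72 (71.3%) in Enl-T1, against 72.7% and 70.6% of all protein-coding genes. It was found in Enl-WT alone for 11 genes (10.9%, against 2.82% of all protein-coding genes), among them Slc17a1, Slc17a2, Slc17a3, Slc2a2, Slc6a18 and Slc7a13, and in Enl-T1 alone for Slc22a22 (0.744% of all protein-coding genes). Of these 11, 9 belong to the proximal tubule list, 25.7% of its 35 genes. Of the 35 carriers listed as proximal tubule carriers, 28 had such a peak in Enl-WT and 19 in Enl-T1. In all, 155 of the 512 carrier peaks of Enl-WT (30.3%) had no overlapping peak in Enl-T1, near the 30% of all Enl-WT peaks, and 30 of the 391 of Enl-T1 (7.67%) had none in Enl-WT, against 13.4% of all Enl-T1 peaks. Over these 155 peaks the Enl-WT counts summed to 863 CPM in proximal tubule-like nuclei, 532 CPM in distal or loop-like nuclei and 338 CPM in nephron progenitor-like nuclei, and 50 of the 155 (32.3%) were highest in the proximal tubule-like nuclei among 7 classes, against 18.2% of all 47872 peaks of Enl-WT alone and 9.23% of all shared regions. Peaks were called on all nuclei of a library together, and Enl-T1 held fewer proximal tubule-like nuclei at lower depth, and their part in the missing peaks was not tested.

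Several of these Enl-WT peaks mark starts of well known carriers. At the start of Slc2a2, the carrier that lets glucose out of the proximal tubule cell, the peak at chr3:28697497-28698445 held 203 counts in proximal tubule-like nuclei (14.3 CPM) and 11 in nephron progenitor-like nuclei (0.40 CPM). At Slc6a18, a glycine carrier, the start peak at chr13:73677697-73678468 held 189 and 9 counts (13.3 and 0.33 CPM), and at Slc17a3, a urate and phosphate carrier, the peak at chr13:23839114-23840320 held 152 and 30 counts (10.7 and 1.10 CPM). None of these 3 peaks enters the comparisons below, whether between libraries or between classes of Enl-WT nuclei, which use shared regions only. Slc6a18, Slc17a3, Slc6a20b and Slc22a28 had peaks in Enl-WT alone, and Slc5a12, a lactate carrier, had 2 peaks in Enl-T1 alone, with 159 and 46 of their counts from nephron progenitor-like nuclei.

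The shared regions numbered 354, with 1 lying in the windows of 2 carriers. Of the 355 region and gene pairs, 195 (54.9%) were intronic, 100 (28.2%) lay within 1 kb of a start, 45 (12.7%) touched a coding exon, 9 (2.54%) a UTR exon and 6 (1.69%) lay upstream. A further gene's window covered 22 regions (6.21%), and the long window of Slc22a14 shared 7 of its 10 regions with other genes, so its level is not its own. Slc22a13 and Slc22a12 likewise had their region in common with another gene's window. Per kb of peak, the most open genes over all Enl-WT nuclei were Slc7a6os at 45.5 CPM per kb, the biotin and pantothenate carrier Slc5a6 at 31.3, the carnitine carrier Slc22a5 at 30.6, Slc2a8 at 27.7, the insulin-responsive glucose carrier Slc2a4 at 26.3 and the inositol carrier Slc5a3 at 26.2. In Enl-T1 the same genes stood at 42.7, 33.1, 27.1, 23.5, 31.3 and 28.9 CPM per kb.

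Carrier chromatin as a whole differed between classes, by less than the 1.5-fold limit used for single genes. As a summed level, the carriers held 3560 CPM in proximal tubule-like nuclei of Enl-WT, the highest of 7 classes, and 2536 in endothelial-like nuclei, the lowest. In Enl-T1 the corresponding shares were 3299 and 2530. There, distal tubule or loop-like nuclei at 3312 and ureteric epithelium-like nuclei at 3306 lay above the proximal tubule-like nuclei. Nephron progenitor-like nuclei held 2895 in Enl-WT and 2899 in Enl-T1, and stroma-like nuclei 2966 and 2992.

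Single carriers differed far more than the family total. Among 86 carriers with at least 200 counts in Enl-WT, 28 had their highest level in proximal tubule-like nuclei, 15 in ureteric epithelium-like, 14 in distal tubule or loop-like, 12 in stroma-like, 7 in nephron progenitor-like, 7 in podocyte-like and 3 in endothelial-like nuclei. For 19 of the 86, the highest class exceeded the next by at least 1.5-fold. The same counts were not made over all protein-coding genes, so no excess in a class can be read from them. Of all 110706 shared regions, 9.23% were highest in proximal tubule-like and 22.2% in stroma-like nuclei of Enl-WT. Those are single regions and not sums over gene windows. Of the 29 proximal tubule carriers among the 86, 16 were highest in proximal tubule-like nuclei. The exceptions include Slc13a1, highest in nephron progenitor-like nuclei, and Slc2a9 and Slc22a18, both highest in ureteric epithelium-like nuclei, at 78.2 and 23.9 CPM.

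**Figure D1:**
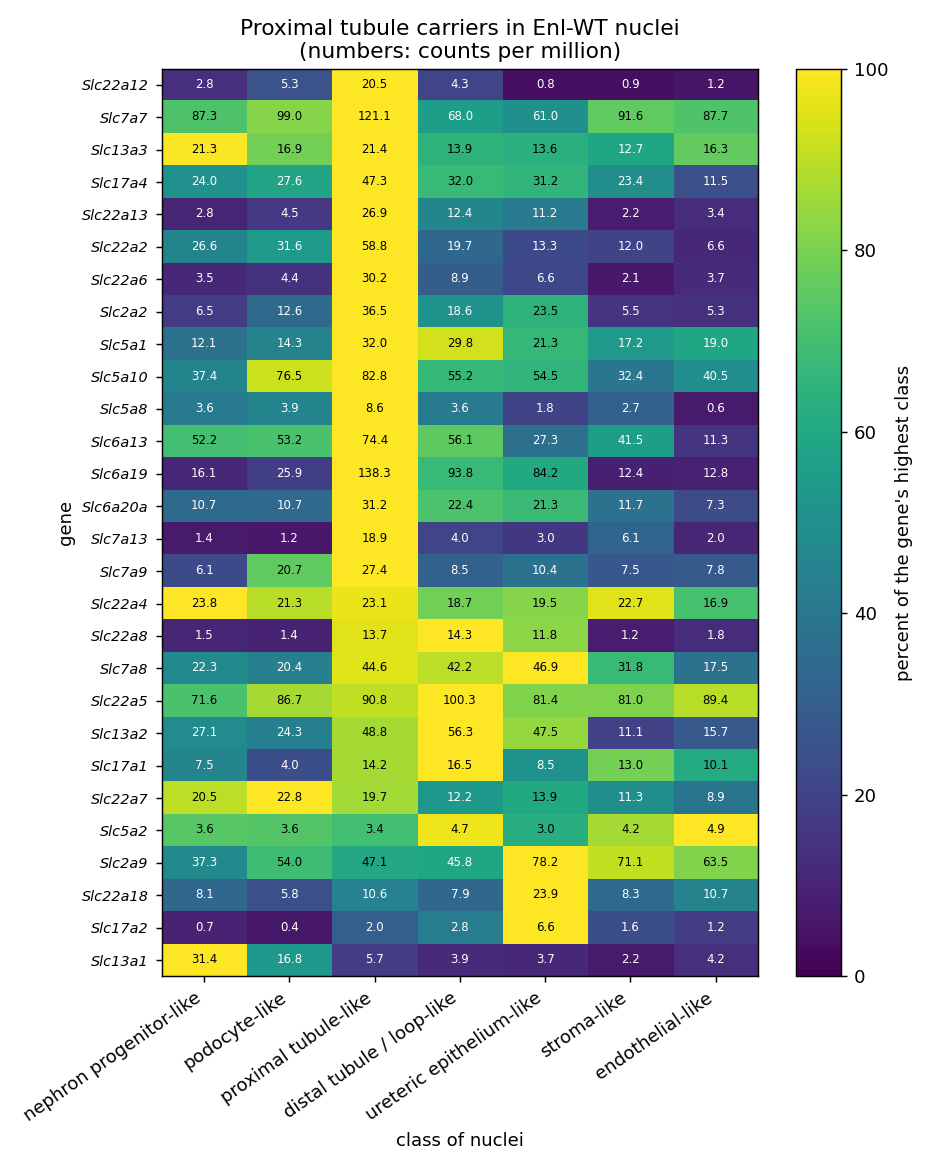
Level of the proximal tubule carriers reported here that had at least 200 counts, in 7 classes of Enl-WT nuclei, with genes in rows, classes in columns, colour as percent of the gene's highest class and the printed number in CPM. The upper 16 rows peak in proximal tubule-like nuclei, from Slc5a8 at 8.60 CPM to Slc6a19 at 138 CPM, and the lowest row, Slc13a1, peaks in nephron progenitor-like nuclei at 31.4 CPM.

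Proximal tubule-like nuclei were then compared with nephron progenitor-like nuclei within the Enl-WT library, which describes how carrier chromatin differs between the start and a later stage of the nephron. Single carriers of amino acids, glucose, organic anions and urate, Slc6a19, Slc2a2, Slc22a6 and Slc22a12 among them, were more open in the proximal tubule-like nuclei, and most of the carriers used by many cell types were within 1.5-fold of the progenitors. Of 84 carriers with enough counts, 25 were higher by at least 1.5-fold and 3 lower, with a median log2 ratio of 0.17. Over all 16465 genes tested, 7.9% were higher and 6.88% lower, with a median of 0.12. Of 28 proximal tubule carriers, 17 were higher and 1 lower, with a median of 0.99. By family, 5 of 18 Slc6, 4 of 15 Slc7, 4 of 11 Slc5, 3 of 12 Slc2, 6 of 17 Slc22, 2 of 6 Slc17 and 1 of 5 Slc13 carriers were higher. The Slc2, Slc5 and Slc13 families had 1 lower carrier each. Against progenitor cluster 1 alone 25 of 84 carriers were higher and 3 lower, against 8% and 6.92% of all genes. Against the 92 Enl-WT nuclei of progenitor cluster 16 it was 30 and 9 of 79, against 16% and 7.58% (both chosen after seeing the data), with Slc6a19 at 3.21, Slc22a6 at 2.66, Slc7a13 at 1.79 and Slc13a1 at -2.18. The nuclei were grouped on other regions of the same nuclei, so these values are a description.

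**Figure D2:**
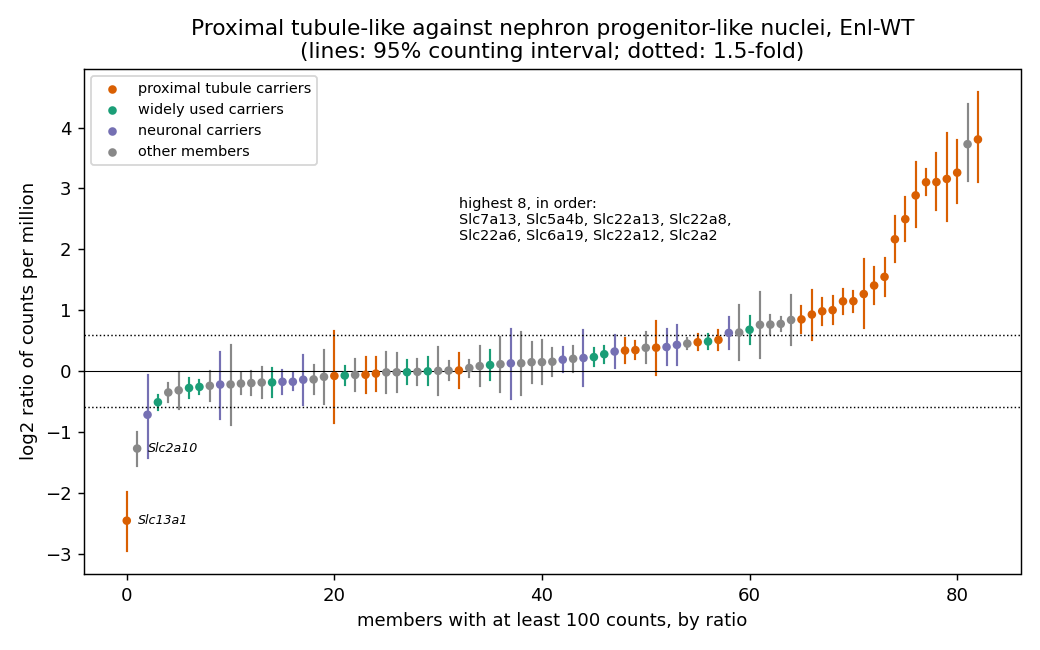
Log2 ratio of CPM in proximal tubule-like to nephron progenitor-like nuclei of Enl-WT for the tested carriers reported here, in rising order, coloured by list, with 95% counting intervals as lines. Slc7a13 at 3.80 and Slc5a4b at 3.73 lead, Slc13a1 at -2.46 is the lowest, and the 12 widely used carriers lie between -0.51 and 0.68.

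Among amino acid carriers, Slc6a19, the main luminal carrier of neutral amino acids, had the highest level, with 138 CPM (1962 counts) in proximal tubule-like and 16.1 CPM (441 counts) in nephron progenitor-like nuclei. Its log2 ratio was 3.10 (2.89 to 3.32). The difference was steepest at a region over its UTR exon at chr13:73680143-73681211, with 690 against 43 counts and a log2 ratio of 4.95, and the region over a coding exon at chr13:73692151-73693184 held 1266 against 370 counts. In distal tubule or loop-like nuclei of Enl-WT, Slc6a19 stood at 93.8 CPM. Its proximal tubule-like level exceeded that by a log2 ratio of 0.56, under 1.5-fold. Slc7a13, which carries acidic amino acids and cystine, stood at 18.9 and 1.35 CPM, a log2 ratio of 3.80 (3.10 to 4.59). Slc7a9, the light chain of the cystine carrier, stood at 27.4 and 6.10 CPM, a log2 ratio of 2.16 (1.79 to 2.55). Its heavy chain partner Slc3a1, which is no member of these families, had a log2 ratio of 4.19 (3.49 to 4.96). The proline carrier Slc6a20a stood at 31.2 and 10.7 CPM, a log2 ratio of 1.55 (1.24 to 1.86). The exit carriers differed less. Slc7a8 stood at 44.6 and 22.3 CPM, a log2 ratio of 1.00 (0.77 to 1.23), and Slc7a7 at 121 and 87.3 CPM, a log2 ratio of 0.47 (0.34 to 0.60).

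Sugar carriers were unequal. Slc2a2 stood at 36.5 and 6.47 CPM, a log2 ratio of 2.49 (2.14 to 2.86). Slc5a1, a sodium-driven glucose carrier, stood at 32.0 and 12.1 CPM, a log2 ratio of 1.40 (1.11 to 1.70), and Slc5a10, which takes up mannose and fructose, at 82.8 and 37.4 CPM, a log2 ratio of 1.15 (0.97 to 1.32). Slc5a4b, a gene of the sodium and glucose carrier family, stood at 24.7 and 1.86 CPM, a log2 ratio of 3.73 (3.12 to 4.39), and was higher still in distal tubule or loop-like nuclei, at 35.6 CPM. Slc5a2, the carrier that reclaims most glucose in the adult proximal tubule, was low in both in shared regions, at 3.4 and 3.6 CPM, with 48 and 98 counts. A further peak at its start, chr7:128264861-128265983, was called in Enl-WT alone and held 120 counts (8.46 CPM) in proximal tubule-like and 34 counts (1.24 CPM) in nephron progenitor-like nuclei. The facilitative carrier Slc2a10 went the other way, at 17.9 CPM in proximal tubule-like and 43.4 CPM in nephron progenitor-like nuclei, a log2 ratio of -1.28 (-1.563 to -0.996).

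Other carriers past 1.5-fold on the higher side were the monocarboxylate carrier Slc5a8 at 1.26, Slc17a4 at 0.98, Slc17a1 at 0.93, the dicarboxylate carrier Slc13a2 at 0.85, Slc6a12 at 0.84, Slc22a23 at 0.77, the fructose carrier Slc2a5 at 0.76, Slc7a3 at 0.76 and Slc2a7 at 0.63. Below the limit lay Slc6a13 at 0.51, Slc22a18 at 0.38, Slc22a5 at 0.34 and the urate carrier Slc2a9 at 0.34. Of the 101 carriers, 15 had no shared region and 2 too few counts for this comparison.

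Among carriers of organic ions, Slc22a6 and Slc22a8, the basolateral carriers that bring organic anions and many drugs into the proximal tubule cell, stood at 30.2 and 13.7 CPM in proximal tubule-like nuclei against 3.51 and 1.54 CPM in nephron progenitor-like nuclei. Their log2 ratios were 3.10 (2.65 to 3.59) and 3.16 (2.46 to 3.91). Slc22a8 stood at 14.3 CPM in distal tubule or loop-like nuclei. The urate carrier Slc22a12 stood at 20.5 and 2.78 CPM, a log2 ratio of 2.88 (2.36 to 3.44), and Slc22a13 at 26.9 and 2.81 CPM, a log2 ratio of 3.26 (2.75 to 3.80). The organic cation carrier Slc22a2 had a log2 ratio of 1.14 (0.94 to 1.35), and its intronic region at chr17:12588567-12589498 one of 2.25. Slc22a4, Slc22a7 and the dicarboxylate carrier Slc13a3 had ratios of -0.04, -0.06 and 0.01 with intervals that include 0. Both Slc22a4 and Slc13a3 also had peaks in Enl-WT alone. That of Slc22a4, over a coding exon at chr11:53986272-53987242, held 102 counts (7.19 CPM) in proximal tubule-like and 55 counts (2.01 CPM) in nephron progenitor-like nuclei. The largest of Slc13a3 lay in an intron, at chr2:165459375-165460360, with 549 counts (38.7 CPM) in proximal tubule-like and 60 counts (2.19 CPM) in nephron progenitor-like nuclei.

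Slc13a1, the sulphate carrier of the mature proximal tubule, had the opposite pattern to its list in shared regions. It stood at 31.4 CPM (860 counts) in nephron progenitor-like nuclei and 5.71 CPM (81 counts) in proximal tubule-like nuclei of Enl-WT, a log2 ratio of -2.46 (-2.96 to -1.99). All 3 of its shared regions are intronic. The region at chr6:24100363-24101287, whose midpoint lies 67.3 kb downstream of the start, held 418 and 13 counts, and the region at chr6:24105331-24106492 held 411 and 64. No start peak was called for Slc13a1 in either library. Further peaks of Slc13a1 were called in Enl-WT alone. Those at chr6:24090290-24091205 and chr6:24122359-24123254 held 22 and 16 counts in proximal tubule-like and 80 and 46 in nephron progenitor-like nuclei. That at chr6:24154533-24155479 went the other way, with 51 counts (3.60 CPM) in proximal tubule-like and 27 (0.99 CPM) in nephron progenitor-like nuclei.

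Among the widely used carriers differences were small. Of 12 tested, 1 was higher by at least 1.5-fold, the creatine carrier Slc6a8 at 40.0 against 25.0 CPM, and none was lower, with a median log2 ratio of -0.01. The glucose carrier Slc2a1 had a log2 ratio of 0.28 (0.14 to 0.41), the large neutral amino acid carrier Slc7a5 -0.07 (-0.23 to 0.08) and the cationic amino acid carrier Slc7a1 -0.28 (-0.44 to -0.12). A gene-wide value can hide regions that behave differently, some of them in opposite directions. In Slc6a6, the taurine carrier, the start region at chr6:91683420-91684536 held 43.2 CPM in proximal tubule-like and 43.3 CPM in nephron progenitor-like nuclei, while an intronic region at chr6:91690335-91691384 held 34.3 and 2.67 CPM. In Slc7a11 the intronic region at chr3:50433439-50434606 held 180 counts in proximal tubule-like and 22 in nephron progenitor-like nuclei, a log2 ratio of 3.98, and that at chr3:50224396-50225404 held 12 and 295, a log2 ratio of -3.67. Of 12 neuronal carriers tested, 1 was higher (Slc6a15, log2 ratio 0.63) and 1 lower (the choline carrier Slc5a7, -0.72).

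Partners of these carriers were also more open in proximal tubule-like nuclei. Of 19 partner and regulator genes tested, 11 were higher and 1 lower, with a median log2 ratio of 0.93. The scaffold gene Pdzk1 had a log2 ratio of 2.47 (2.17 to 2.78) and the transcription factor gene Hnf4a 2.42 (2.24 to 2.61). Hnf4a, Pdzk1, Slc34a1, Lrp2 and Cubn also served among the markers to name the nuclei, and Cubn was the one gene that was lower, at -0.72.

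Sequences are shown for regions that carry this contrast, in lower case (RefSeq build GRCm38.p6), with capitals marking CAAAGTCCA or CAAAGTTCA, forms of the site of the proximal tubule factor HNF4A, on either strand. The first lies before a RefSeq start of the organic anion carrier Slc22a6 and is 250 bases long, in the direction of the gene. It lies within the start region at chr19:8617665-8618572, which held 321 counts in proximal tubule-like and 62 in nephron progenitor-like nuclei, a log2 ratio of 3.32.

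Slc22a6 upstream (chr19:8617746-8617995, plus strand): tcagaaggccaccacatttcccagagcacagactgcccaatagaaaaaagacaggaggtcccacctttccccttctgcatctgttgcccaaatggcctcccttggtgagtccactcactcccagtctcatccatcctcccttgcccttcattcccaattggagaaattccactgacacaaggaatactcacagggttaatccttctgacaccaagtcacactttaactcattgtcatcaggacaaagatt

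RefSeq start windows (250 bases before to 50 after the start) were found for 77 of the 101 carriers, 102 windows in all. Neither HNF4A form was present in the 36 windows of the proximal tubule carriers or the 13 of the widely used carriers, and CAAAGTTCA was present in 1 of the 102 (0.980%). Of the 32851 windows of all genes, 0.475% held CAAAGTCCA and 0.390% held CAAAGTTCA. A match is a description of the letters in a window and not a site.

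The next 3 are the central 300 bases of intronic regions that were more open in proximal tubule-like nuclei (reference letters of GRCm38.p6, plus strand). The Slc22a8 sequence comes from the region with 194 against 42 counts, that of Slc22a2 from the one with 378 against 153, and that of Slc6a6 from the one with 487 against 73.

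Slc22a8 intron (chr19:8597364-8597663, plus strand): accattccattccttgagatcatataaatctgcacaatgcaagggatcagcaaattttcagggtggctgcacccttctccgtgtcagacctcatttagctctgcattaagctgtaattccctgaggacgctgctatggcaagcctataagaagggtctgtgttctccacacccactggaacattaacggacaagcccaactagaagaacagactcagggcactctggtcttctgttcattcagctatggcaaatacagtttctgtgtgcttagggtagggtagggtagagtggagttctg
Slc22a2 intron (chr17:12588882-12589181, plus strand): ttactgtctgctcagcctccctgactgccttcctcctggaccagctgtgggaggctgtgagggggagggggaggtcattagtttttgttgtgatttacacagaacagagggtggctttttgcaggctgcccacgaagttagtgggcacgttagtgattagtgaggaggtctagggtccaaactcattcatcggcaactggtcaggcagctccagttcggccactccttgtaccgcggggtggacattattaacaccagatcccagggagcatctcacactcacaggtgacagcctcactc
Slc6a6 intron (chr6:91690709-91691008, plus strand): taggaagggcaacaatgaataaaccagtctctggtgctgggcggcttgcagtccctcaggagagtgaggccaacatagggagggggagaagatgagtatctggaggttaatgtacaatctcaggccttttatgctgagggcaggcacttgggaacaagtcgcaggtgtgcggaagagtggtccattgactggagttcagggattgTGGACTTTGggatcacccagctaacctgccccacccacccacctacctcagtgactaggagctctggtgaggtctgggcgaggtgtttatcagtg

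Of these, the Slc6a6 region holds the HNF4A letters. Over the central 300 bases of all regions, either form was present in 2 of 81 carrier regions (2.47%) that were at least 1.5-fold higher in proximal tubule-like than in nephron progenitor-like nuclei, in 0 of 44 that were lower and in 2 of 144 (1.39%) in between. Among shared regions of the whole genome either form was present in 1.53% of the 13053 that were higher in proximal tubule-like nuclei, in 0.711% of the 24190 that were lower and in 0.830% of all 110706.

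The last is the centre, also 300 bases, of the intronic region of Slc13a1 that was more open in the progenitors, with 418 counts in nephron progenitor-like and 13 in proximal tubule-like nuclei of Enl-WT. It holds neither form.

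Slc13a1 intron (chr6:24100675-24100974, plus strand): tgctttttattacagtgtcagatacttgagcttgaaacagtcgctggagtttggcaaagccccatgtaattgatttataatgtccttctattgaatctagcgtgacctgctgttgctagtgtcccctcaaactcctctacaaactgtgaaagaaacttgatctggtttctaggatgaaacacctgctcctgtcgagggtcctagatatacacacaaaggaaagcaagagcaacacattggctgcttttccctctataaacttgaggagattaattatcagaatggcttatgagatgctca

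Enl-T1 was compared with Enl-WT first over all nuclei, where the mix of nuclei differed between the libraries. Of 86 carriers tested, 1 was higher by at least 1.5-fold, against 0.987% of all genes, and 5 were lower, against 0.886%, with a median log2 ratio of -0.03 for the carriers and -0.03 for all genes. Of the 5, 4 are on the proximal tubule list, and Slc5a4b, which is highest in distal tubule or loop-like nuclei, is not. The Slc7a13 level was 5.21 CPM for Enl-WT against 2.18 CPM for Enl-T1, with a log2 ratio of -1.26 (-1.58 to -0.94), Slc5a4b at 8.79 and 3.79 CPM, -1.21 (-1.46 to -0.97), and Slc6a19 at 43.1 and 21.2 CPM, -1.02 (-1.12 to -0.92). Slc22a13 and Slc22a6 had log2 ratios of -0.99 (-1.24 to -0.74) and -0.77 (-1.01 to -0.53), and that of Slc22a6 was -1.22 within 1 kb of its start alone. The proximal tubule carriers had a median of -0.16 over 29 genes, and of their 19 partners 3 were lower, among them Slc3a1 at -1.31 and Hnf4a at -0.65. The 5 carriers that were lower all had a log2 ratio of at least 3 between proximal tubule-like and nephron progenitor-like nuclei of Enl-WT, and proximal tubule-like nuclei made up 10.7% of the nuclei of Enl-WT but 0.807% for Enl-T1 (8.06% and 0.324% with components 2 to 15). Over all nuclei, fewer nuclei of a type and less open chromatin per nucleus cannot be told apart.

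Within the classes that both libraries held in number, most carriers stayed close to the level of Enl-WT. In nephron progenitor-like nuclei 3 of 85 were higher, against 1.82% of all genes, and none was lower, against 2.26%, with a median of -0.00. In stroma-like nuclei 1 of 84 was higher, against 1.3%, and 1 lower, against 0.914%, with a median of 0.02. In ureteric epithelium-like nuclei 2 of 81 were higher, against 1.56%, and 1 lower, against 0.716%, with a median of 0.05. In endothelial-like nuclei 3 of 63 were higher, against 2.28%, and 1 lower, against 1.3%, with a median of -0.02. None of the 12 widely used carriers reached 1.5-fold in any of these 4 classes or over all nuclei.

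**Figure D3:**
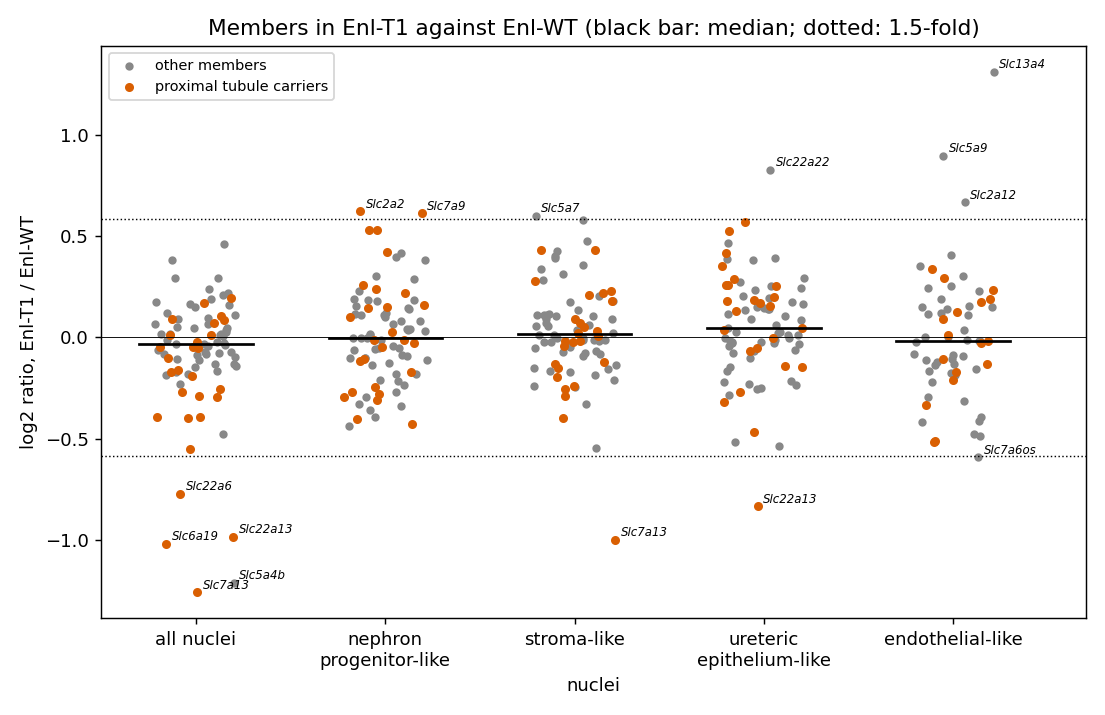
Log2 ratio of CPM in Enl-T1 to Enl-WT for the carriers reported here in all nuclei and in 4 classes, with the median of all carriers tested as a black bar, 1.5-fold as dotted lines and carriers past it named. The proximal tubule carriers in orange reach down to -1.26 over all nuclei, while the medians lie between -0.03 and 0.05.

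In nephron progenitor-like nuclei the 3 higher carriers were all of the proximal tubule list. Between the libraries the mean marker level of this class also differed, from 45.0 CPM in Enl-WT to 37.2 CPM in Enl-T1 for 9 nephron progenitor markers, from 45.6 to 55.8 for 9 markers of early nephron epithelium, from 53.3 to 63.2 for 12 of the distal tubule or loop and from 25.7 to 22.8 for 11 of the proximal tubule, and their part in the carrier ratios was not tested. Among the 3 carriers, Slc2a2 stood at 6.47 CPM for Enl-WT against 9.96 CPM for Enl-T1, a log2 ratio of 0.62 (0.26 to 1.00), and Slc7a9 at 6.10 and 9.33 CPM, 0.61 (0.23 to 1.00). Slc22a12 and Slc22a13 both stood at 0.53 with intervals from -0.04 to 1.12. The lowest were Slc6a19 at -0.43 (-0.70 to -0.16), Slc13a1 at -0.40 (-0.59 to -0.21), the inositol carrier Slc5a11 at -0.39 (-0.59 to -0.20), Slc2a10 at -0.36 (-0.52 to -0.20) and Slc2a12 at -0.34 (-0.49 to -0.19), none of which reached 1.5-fold. In Slc2a2 the region over a coding exon at chr3:28721567-28722470 held 48 Enl-WT and 151 Enl-T1 counts, a log2 ratio of 1.06, and 263 counts in proximal tubule-like nuclei of Enl-WT, a log2 ratio of 3.40 over the progenitors.

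Most nephron progenitor-like nuclei of the libraries lay in different clusters, so levels are given by cluster number. Cluster 0 held 1 Enl-WT and 3161 Enl-T1 nuclei, cluster 10 held 10 and 850, cluster 16 held 92 and 287, and cluster 1 held 1838 and 107. In cluster 0 of Enl-T1 against cluster 1 of Enl-WT, 5 of 82 carriers were higher, against 2.16% of all genes, and 1 lower, against 3.08%. In cluster 10 of Enl-T1 against cluster 1 of Enl-WT it was 4 and 2 of 79, against 1.63% and 2.08%, and between the libraries within cluster 1, with few Enl-T1 nuclei, 8 and 7 of 76, against 5.77% and 9.59%. Slc2a2 stood at 6.43 CPM (5.12 to 7.97) in cluster 1 of Enl-WT, at 10.8 CPM (9.22 to 12.6) in cluster 0 of Enl-T1 and at 6.12 CPM (3.90 to 9.15) in cluster 10 of Enl-T1, so that cluster 0 but not cluster 10 lay above cluster 1 of Enl-WT. Within cluster 1 the Enl-T1 nuclei held 6 counts, or 6.18 CPM (1.27 to 18.1), which cannot be set apart from Enl-WT. Within cluster 16 the levels were 7.50 CPM (2.60 to 16.9) in Enl-WT and 12.4 CPM (7.44 to 19.3) in Enl-T1, with overlapping intervals.

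Slc13a1 varied within the progenitors. It stood at 31.8 CPM (28.8 to 34.98) in cluster 1 of Enl-WT, 20.7 CPM (18.5 to 23.2) in cluster 0 of Enl-T1 and 41.6 CPM (35.4 to 48.5) in cluster 10 of Enl-T1, so that the class value of Enl-T1 averages a lower and a higher cluster. In cluster 16 it stood at 25.9 CPM (15.6 to 40.5) in Enl-WT and 6.502 CPM (3.12 to 12.0) in Enl-T1. Its 3 regions differed in direction in the class, with log2 ratios of -0.37 and -0.87 at the 2 regions most open in Enl-WT and 1.71 at chr6:24123303-24124242, which held 31 Enl-WT and 153 Enl-T1 counts. With regions matched at 80% overlap, the class ratio of Slc13a1 was -0.08.

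**Figure D4:**
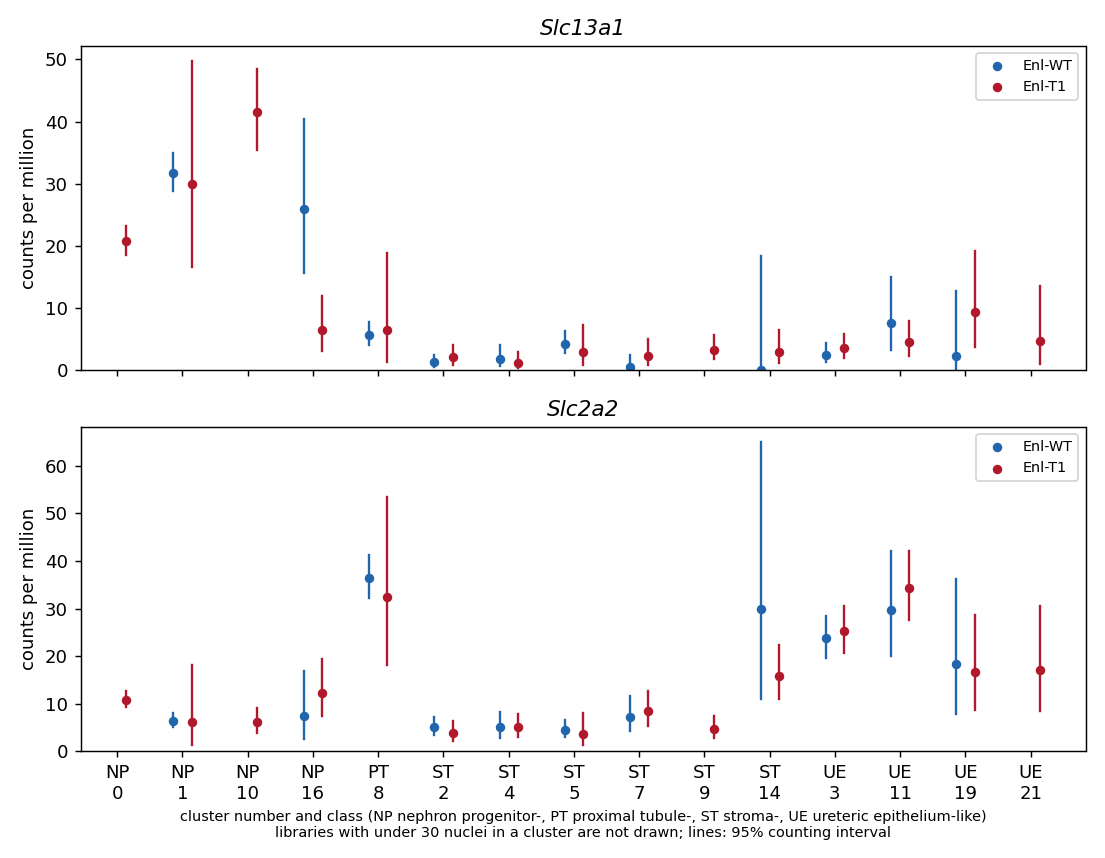
CPM of Slc13a1 and Slc2a2 in each cluster of 4 classes in Enl-WT (blue) and Enl-T1 (red) with 95% counting intervals as lines. Slc13a1 is high in progenitor clusters, up to 41.6 CPM in cluster 10 of Enl-T1, and Slc2a2 is highest in proximal tubule-like cluster 8 of Enl-WT, at 36.5 CPM, and high in ureteric epithelium-like cluster 11 of Enl-T1, at 34.2 CPM.

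Further single regions differed between the progenitors of the libraries by more than the gene-wide value, which was 0.24 for Slc6a13, 0.01 for Slc2a13, 0.38 for Slc7a11 and -0.34 for Slc2a12. The intronic region of Slc6a13 at chr6:121316340-121317490 held 154 Enl-WT and 689 Enl-T1 counts, a log2 ratio of 1.57, and that of the inositol carrier Slc2a13 at chr15:91406343-91407314 held 58 and 278, a ratio of 1.66. In Slc7a11 the intronic region at chr3:50300337-50301315 held 156 and 724 counts, a ratio of 1.62. In the other direction, an intronic region of Slc2a12 at chr10:22653165-22654467 held 398 Enl-WT and 225 Enl-T1 counts, a ratio of -1.42. These regions were named for their ratios after the values were seen.

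In stroma-like nuclei the carriers past 1.5-fold were Slc5a7, at 2.73 and 4.13 CPM, a log2 ratio of 0.60 (0.06 to 1.16), and Slc7a13, at 6.08 and 3.04 CPM, a log2 ratio of -1.001 (-1.50 to -0.52). Slc2a12, a facilitative sugar carrier, stood at 36.8 and 55.1 CPM, 0.58 (0.44 to 0.73), just under the limit, and 0.09 within 1 kb of its start, and its intronic region at chr10:22671579-22672893 held 281 and 632 counts. With only the clusters that both libraries held in number (2, 4, 5 and 7, a choice made after seeing the data), the Slc2a12 ratio was 0.40, and of 82 carriers none was higher, against 0.981% of all genes, and 2 were lower, against 1.14%.

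In ureteric epithelium-like nuclei Slc22a22 was among those on the higher side, at 0.83 (0.06 to 1.64) on 42 and 94 counts. Slc22a13 was lower, at 11.2 and 6.28 CPM, -0.83 (-1.38 to -0.30). Slc6a19 is well open in this class, at 84.2 CPM for Enl-WT against 67.5 CPM for Enl-T1, a log2 ratio of -0.32 (-0.49 to -0.15). In endothelial-like nuclei the carriers past the limit were Slc13a4, Slc5a9 and Slc2a12 on the higher side, the last at 31.2 and 49.6 CPM, 0.67 (0.31 to 1.02), and Slc7a6os on the lower side, at 52.3 and 34.7 CPM, -0.59 (-0.97 to -0.23). Slc2a12 thus lay on the higher side in stroma-like and endothelial-like nuclei and on the lower side in nephron progenitor-like nuclei, and the differences between these classes were not tested.

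The 102 proximal tubule-like nuclei of Enl-T1 were compared with the 1010 of Enl-WT as a comparison chosen after the other values had been seen. Of 78 carriers tested, 11 were higher, against 6.48% of all genes, and 18 were lower, against 12.2%, with a median log2 ratio of -0.22 against -0.07 for all genes. Among 26 proximal tubule carriers 2 were higher and 11 lower, with a median of -0.45. Slc7a13 had no counts in Enl-T1 and 268 (18.9 CPM) in Enl-WT. A floor of 3 counts over the Enl-T1 nuclei corresponds to 3.24 CPM, but it is not a counting interval and bounds no fold. Slc6a20a stood at 31.2 CPM in Enl-WT and 8.63 CPM in Enl-T1, on 442 and 8 counts, -1.85 (-3.74 to -0.48), and Slc7a9 at 27.4 and 10.8 CPM, -1.34 (-2.98 to -0.09). Slc2a2 stood at 36.5 CPM (32.1 to 41.2) and 32.4 CPM (18.1 to 53.4), which cannot be set apart at this depth. On the higher side, Slc7a11 stood at 110 and 205 CPM, 0.90 (0.58 to 1.21), and the betaine carrier Slc6a12 at 13.3 and 30.2 CPM, 1.18 (0.26 to 2.00). The mean level of the 11 proximal tubule markers was 48.2 CPM in Enl-WT and 31.1 CPM in Enl-T1. Of the 11, 2 were at 0 in both libraries. In Enl-T1 the same mean was 22.8 CPM in nephron progenitor-like and 28.4 CPM in endothelial-like nuclei. In the proximal tubule-like nuclei of Enl-WT and Enl-T1, 9 nephron progenitor markers had means of 24.4 and 31.1 CPM. There 9 early nephron epithelium markers had means of 71.2 and 80.8 CPM, and 12 distal tubule or loop markers 73.6 and 84.2 CPM. The part of these marker levels in the carrier ratios was not tested.

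Shares of nuclei with a fragment followed the levels for the carriers named here. Each nucleus with at least 2000 fragments was thinned to 2000, which left out 19 proximal tubule-like and 31 nephron progenitor-like nuclei of Enl-WT and 150 nephron progenitor-like nuclei of Enl-T1. Of the thinned nuclei, Slc6a19 was found in 24.6% of the proximal tubule-like and 3.18% of nephron progenitor-like nuclei of Enl-WT, and in 2.49% of the latter in Enl-T1. Slc22a6 was found in 6.13%, 0.73% and 0.77%, in the same order. Slc13a1 was found in 1.15% of proximal tubule-like and 6.12% of nephron progenitor-like nuclei of Enl-WT and in 4.67% of nephron progenitor-like nuclei of Enl-T1. In stroma-like nuclei, where Slc13a1 stood at 2.22 and 2.36 CPM, the share was 0.43% in Enl-WT and 0.52% in Enl-T1.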

How the data were processed

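Nuclei were profiled by single-nucleus ATAC-seq in 1 Enl-WT and 1 Enl-T1 library. The authors used Cell Ranger ATAC 2.1.0 on mm10, called peaks in each library and deposited raw whole-number counts per peak and barcode. A value of 2 made up 80.1% (Enl-WT) or 81.2% (Enl-T1) of all values, the count that both ends of a fragment give, so a fragment was taken as 2 counts. Barcodes with 2000 to 100000 counts were kept. The study's further filters were not applied and doublets were kept. After its filters the study reported fewer nuclei, in nearly equal numbers for both libraries. The excess kept here is therefore larger for Enl-T1, and its part in the class sizes and shares was not tested. Peaks from both libraries with 1 base or more in common were joined into 110706 shared regions, with 88.8% (Enl-WT) or 94.9% (Enl-T1) of all counts. Nuclei were clustered on regions of no carrier (components 2 to 30, 15 neighbours, Leiden at resolution 1) and named from markers.

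Ratios carry exact 95% intervals on fragments. With 1 library in a group there is no replicate check and no p-value. Genes were named by list, and by the 6 highest and 6 lowest ratios at 200 counts or more. Single regions and clusters were named after their values were seen. The members and lists were chosen with earlier results of these data known. Scripts were tested on simulated data. Alternatives covered matched regions, start windows, depth limits, doublets, clustering settings and single clusters. Python 3.11.15, numpy 2.4.6, scipy 1.17.1, scikit-learn 1.9.0, leidenalg 0.10.2 and pysam 0.24.0 were used. Some genes and sequences are not reported here, although counts and medians over lists include them.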

Additional observations from a re-analysis of the deposited data

Results flagged for a closer look

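Slc13a4, a sulphate carrier, lay on opposite sides of Enl-WT in different classes. In endothelial-like nuclei the log2 ratio of Enl-T1 to Enl-WT was 1.31 (0.48 to 2.15), at 12.0 and 4.85 CPM on 58 and 48 counts. In stroma-like nuclei it was -0.19 (-0.33 to -0.04). The difference between the classes was not tested, and each class had 1 library in a group.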

How the results depend on the processing

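No paired analysis was possible because each group had 1 library, and for the same reason no library could be left out. Of the values of named carriers, 705 stayed within their counting interval under the alternatives, 49 left it, and 3 of carriers past 1.5-fold turned direction. Those came from cluster comparisons chosen after seeing the data: the progenitor log2 ratio of Slc2a2 was -0.0703 for cluster 10 of Enl-T1 against cluster 1 of Enl-WT and -0.0568 within cluster 1, and the proximal tubule against progenitor ratio of Slc5a7 was 0.077 against cluster 16, with intervals that all include 0. The carrier median moved to 0.0305 over all nuclei and to 0.0777 in stroma-like nuclei with regions matched at 80% overlap, and to -0.0259 in ureteric epithelium-like nuclei within 1 kb of starts, and the cause was not tested. Counts of carriers past 1.5-fold ranged over the alternatives from 19 to 30 higher and 2 to 9 lower between proximal tubule-like and nephron progenitor-like nuclei. For Enl-T1 against Enl-WT they ranged from 0 to 2 higher and 4 to 5 lower over all nuclei, 1 to 8 and 0 to 7 in nephron progenitor-like, 0 to 2 and 0 to 2 in stroma-like, 1 to 4 and 1 to 2 in ureteric epithelium-like, and 0 to 4 and 0 to 6 in endothelial-like nuclei. The 102 proximal tubule-like nuclei of Enl-T1 held 926506 counts in shared regions, against 14181471 in the 1010 of Enl-WT, which limits ratios between them.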
